A study of Mus musculus with 6 samples.

Results

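Transferrin and the ferritins were followed molecule by molecule in 6 single cells of the mouse brain. The genes were Trf (transferrin), Fth1 (ferritin heavy chain) and Ftl1 (ferritin light chain), and they were chosen by name and on their measured share of transcripts in these cells, which was already known. Together they had 525 of the 36659 transcripts in the table, 392 from Trf, 133 from Fth1 and 0 from Ftl1, so 2 of the 3 genes had any transcript, out of 6357 genes in all. A transcript here is 1 cDNA molecule, that is, all reads of 1 cell and 1 gene with the same unique molecular identifier (UMI, a random tag of 6 bases added during cDNA synthesis).

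The cDNA came from CD-1 mice and had been made with STRT on the Fluidigm C1, a microfluidic chip that captures single cells, and was then read on the PacBio long-read instrument in a run of mostly short molecules and a run enriched for long ones. There were 2 cells of each of 3 kinds, all without treatment and all given the developmental stage "Embryo" by the labels. The study names them VLMC (vascular and leptomeningeal cell, a fibroblast-like cell of brain vessels and membranes), Oligo1 (an oligodendrocyte that is still immature) and Oligo5 (a mature one that myelinates), and the names VLMC-1 to Oligo5-2 are used below, although the labels call the VLMCs "Oligodendrocyte progenitor cell". No animal is named for any cell, so the pair of cells of a kind was treated as 1 sample, no test compares the kinds, and values are given for every cell with Wilson 95% intervals, which cover counting error alone.

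Iron travels in blood and in the fluid around brain cells bound to transferrin, a secreted protein whose N lobe and C lobe each hold an iron ion, and cells take it up through the transferrin receptor. Inside the cell iron is stored in ferritin, a shell built of heavy chains, which oxidize the iron, and light chains, which help it to settle as a mineral core. Oligodendrocytes are known as the iron-rich cells of the brain and as a site of transferrin synthesis there. The ferritin mRNAs carry a hairpin in the 5′ UTR, the iron-responsive element, to which the iron regulatory proteins Aco1 and Ireb2 bind when iron is scarce, and this blocks translation. A ferritin mRNA that lacked the hairpin would lack this control, which is why the 5′ ends of the ferritin molecules are of interest.

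The hairpin was located in the GENCODE M21 transcripts (GRCm38) by its letters, 4 bases of any kind, TGC, a stem of 5 bases, the loop CAGTGN, the 5 bases that pair with the stem, C and 4 more bases, 28 bases in all on the strand of the mRNA. These letters occur within the first 250 bases of a coding transcript for 3 of 21569 genes (0.0139%), namely Fth1, Ftl1 and the Ftl1 copy Ftl1-ps1. The Fth1 element lies at chr19:9982732-9982759 on the plus strand, in the 5′ UTR within exon 1, and ends 110 bases before the start codon. The Ftl1 element lies at chr7:45459780-45459807 on the minus strand, in the 5′ UTR, and ends 148 bases before the start codon. The elements are shown because the 5′ ends are read against them, with the loop in capitals, and 25 of their 28 bases are the same.
Fth1 element: ttcctgcttcaaCAGTGCttgaacggaa
Ftl1 element: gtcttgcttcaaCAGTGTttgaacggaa

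The cells had 2338 to 11483 transcripts each, from 7610 to 20509 reads, and 45.2% to 76.7% of the transcripts of a cell rested on 1 read. All 4 oligodendrocytes had transcripts of at least 9 of 10 oligodendrocyte marker genes, 9.19% to 14.3% of their transcripts, whereas the VLMCs had 0 transcripts of any of the 10 and had 8 and 10 of 10 VLMC markers. Of 10 progenitor markers the VLMCs had Pdgfra, with 5 and 3 transcripts, and no other. In Oligo5-2 there were 33 transcripts of 5 of 10 neuron markers, 0.531% of the cell, and 0 in the other cells. Endothelial markers had 14 transcripts in VLMC-2, 0.299% of the cell and all of Itm2a, and 12 of 6 of 10 genes in Oligo5-1, 0.204% of the cell (Itm2a had 6 of the 12, and Pecam1, Flt1, Esam and Tie1 were at 0), with 0 to 2 in the other cells. Astrocyte markers had 23 transcripts in VLMC-2 and 19 in Oligo5-2, nearly all of the glutamate transporters Slc1a3 and Slc1a2, and 0 to 5 in the other cells. The Oligo5 cells also had 60 and 71 transcripts of Apod, a lipid carrier that stood in the VLMC list, and of no other gene of that list. Erythroid markers had 0 transcripts in all 6 cells, and choroid plexus markers had 1 in VLMC-1 and 0 elsewhere. The part of the neuron and endothelial transcripts in the values below was not tested.

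Trf was among the most abundant genes of the mature oligodendrocytes. There were 239 Trf transcripts in Oligo5-2 and 119 in Oligo5-1, against 8 in Oligo1-1 and 3 in Oligo1-2, while VLMC-2 had 23 and VLMC-1 had 0. As a share of all transcripts of the cell Trf was 3.85% (3.40% to 4.36%) in Oligo5-2 and 2.02% (1.69% to 2.41%) in Oligo5-1. It was 0.491% (0.327% to 0.735%) in VLMC-2, and 0.0697% (0.0353% to 0.137%) and 0.0496% (0.0169% to 0.146%) in the first and the other Oligo1 cell. The mature cells were the highest, VLMC-2 came next and was above both immature oligodendrocytes, and these did not differ from each other beyond their intervals. In VLMC-1 a count of 0 allowed a share of up to 0.128% at 3 counts, above the values of both immature oligodendrocytes, so VLMC-1 could not be told apart from them at this depth. By number of transcripts Trf was 2nd of 2498 genes in Oligo5-2, 3rd of 2114 in Oligo5-1, 18th of 1630 in VLMC-2, 186th of 2968 in Oligo1-1 and 283rd of 2216 in Oligo1-2, ties included.

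Fth1 was also highest in the mature cells. Oligo5-1 had 61 and Oligo5-2 had 49 transcripts, VLMC-2 had 10 and VLMC-1 had 1, and Oligo1-1 had 9 and Oligo1-2 had 3. The shares were 1.03% (0.806% to 1.33%) and 0.789% (0.597% to 1.04%) in the mature cells, 0.213% (0.116% to 0.392%) in VLMC-2 and 0.0428% (0.00755% to 0.242%) in VLMC-1. In the immature cells they were 0.0784% (0.0412% to 0.149%) and 0.0496% (0.0169% to 0.146%). Both mature cells were above the other 4 and did not differ from each other beyond their intervals, and the interval of VLMC-2 overlapped those of VLMC-1 and of both immature oligodendrocytes. Fth1 ranked 4th in Oligo5-1, 8th in Oligo5-2 and 43rd in VLMC-2.

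**Figure D1:**
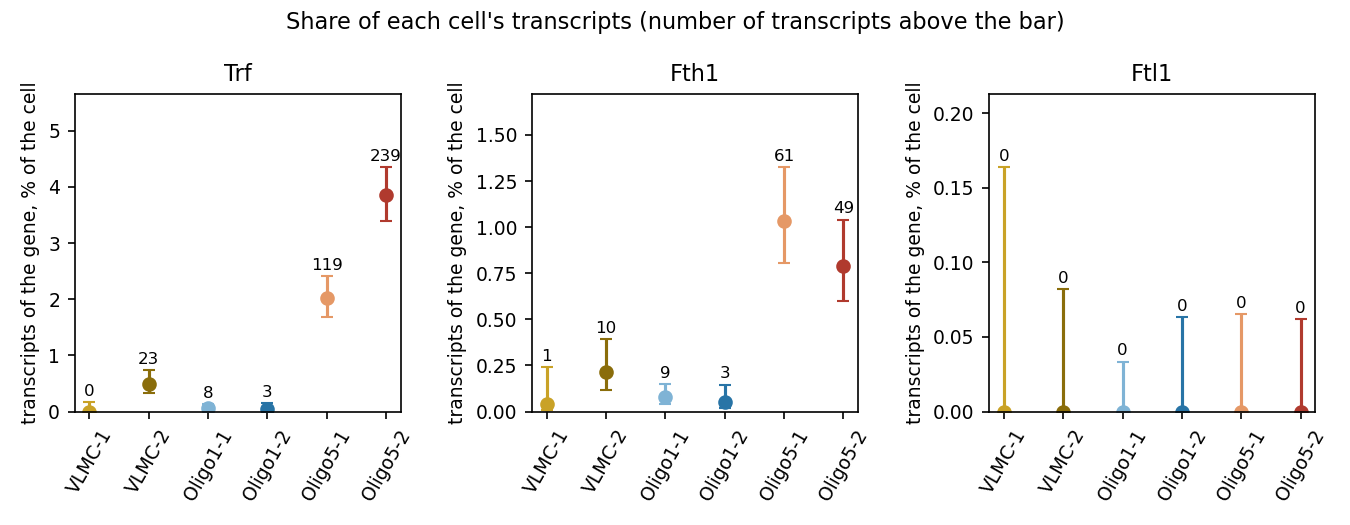
Share of the transcripts of each of the 6 cells that came from Trf, Fth1 and Ftl1, in percent of the transcripts of the cell, with Wilson 95% intervals as bars and the number of transcripts above each bar. The Oligo5 cells are highest for Trf (119 and 239 transcripts) and Fth1 (61 and 49), VLMC-2 is above the Oligo1 cells, and Ftl1 is at 0 in every cell. The 3 panels have different vertical scales.

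Since the genes were chosen for these levels, the contrast between immature and mature cells is given as a description. The mean share of Trf was 2.93% in Oligo5 against 0.0597% in Oligo1, a ratio of 49.2, and the ratios of single pairs of cells ran from 29.0 to 77.5. For Fth1 the means were 0.912% and 0.0640%, a ratio of 14.2, with pairs from 10.1 to 20.8. Of the 164 genes with 20 or more transcripts in the 4 oligodendrocytes, 28 (17.1%) were higher in both Oligo5 cells than in both Oligo1 cells and 26 (15.9%) had a ratio of means of 2 or more, Trf and Fth1 among both, and their ratios ranked 8th and 11th of the 164, where the median ratio was 0.658. All 12 Fth1 transcripts of the Oligo1 cells rested on 1 read.

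Against the VLMCs the contrast was smaller and rested on 1 cell. The mean share of Trf was 1.50% in the 4 oligodendrocytes and 0.245% in the VLMCs, a ratio of 6.10, and for Fth1 the means were 0.488% and 0.128%, a ratio of 3.81. For both genes VLMC-2 was above the Oligo1 cells, 7.04-fold over the higher of these for Trf and 2.72-fold for Fth1, so neither gene was among the 85 of 220 genes (38.6%) that were higher in all 4 oligodendrocytes than in both VLMCs. VLMC-2 had its 23 Trf transcripts with 0 transcripts of the 10 oligodendrocyte markers and 0 of the 10 choroid plexus markers. The cell also had 14 transcripts of Itm2a from the endothelial list and 21 of Slc1a3 from the astrocyte list. The source of its Trf transcripts was not tested. Without VLMC-2 the Fth1 ratio was 11.4, and for Trf no ratio can be given, since VLMC-1 is at 0.

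UMIs near each other, by 1 substitution or a shift of 1 base, were no more frequent among the Trf transcripts of Oligo5-2 (0.970% of pairs) than between these and other genes of the cell (0.967%). In Oligo5-1 the figures were 1.21% and 0.968%, and in VLMC-2 they were 4.74% (12 of 253 pairs) and 0.951%. When such UMIs were merged where both ends also lay within 5 bases, 100 of 119 Trf transcripts were left in Oligo5-1, 78 of 239 in Oligo5-2 and 13 of 23 in VLMC-2, and for Fth1 53 of 61, 38 of 49 and 9 of 10. In Oligo5-2, where nearly all Trf transcripts share both ends, this merging also joins molecules whose UMIs are near by chance. Merging UMIs that differ by 1 substitution, whatever their ends, joins such molecules too. It left 72 of 119 Trf transcripts in Oligo5-1 and 77 of 239 in Oligo5-2.

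The balance between the mature cells depended on which molecules were read and on how UMIs were counted. With the transcripts that had a read of the long run, Trf was 3.69% of Oligo5-1 and 6.53% of Oligo5-2, and with those that had a read of the short run it was 1.52% and 0.932%, so the order of these cells turned. It also turned when UMIs that differ by 1 substitution were merged, with 1.47% in Oligo5-1 and 1.43% in Oligo5-2, and when near UMIs with like ends were merged, an alternative chosen after seeing the data, with 1.92% and 1.36%. The ratio of Oligo5 over Oligo1 for Trf was 21.7 and 29.6 under these mergings, beside 49.2 without. Both mergings also join UMIs that are near by chance, and the part of this in the turned order and the lower ratios was not tested. Fth1, whose mRNA is shorter, went the other way in Oligo5-2, 0.481% in the long run and 1.08% in the short run, where it was above Trf in that cell. In either run the Oligo5 cells were above the Oligo1 cells, with ratios of the mean Trf share of 52.7 in the long and 36.2 in the short run. By number of transcripts Trf exceeded Fth1 1.95-fold in Oligo5-1 and 4.88-fold in Oligo5-2. In Oligo5-1 this order held in each of 7 settings, with 1.52% against 1.09% in the short run. In Oligo5-2 it turned in the short run alone. The part of the run mix in this excess was not tested, and the numbers are of molecules and were not set per length.

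No transcript of Ftl1 was found in any cell, under its own name or as a name joined to another gene. At 3 counts this allowed a share of up to 0.0261% in Oligo1-1, 0.0483% in Oligo5-2, 0.0496% in Oligo1-2, 0.0509% in Oligo5-1, 0.0640% in VLMC-2 and 0.128% in VLMC-1, far under the Fth1 share of the mature cells. This limit holds for uniquely aligned molecules only, since the authors had kept those alone. The Ftl1 mRNA has 17 other genes in the annotation that are 85% or more identical to it over 300 or more bases, and 5 of them are 95% or more identical, led by Ftl1-ps1 on chromosome 13 with 99.6% over 910 bases, Gm15590 on chromosome 17 with 99.1% over 552 bases and Ftl2-ps on chromosome 4 with 98.7% over 552 bases. No transcript of the table bore the name of any of the 17. The authors annotated alignments with RefSeq genes, so a copy outside RefSeq could not appear by name. For Fth1 the same search found 2 genes, Gm6977 with 90.5% over 524 bases and Fth-ps3 with 88.0% over 358 bases, and no transcript bore either name. For Trf the search found Gm20425, with 100% over 1517 bases, an annotated gene that overlaps Trf on the same strand of chromosome 9 and shares its exons, so it is no second locus, and no transcript of the table bears its name. The part of the copies in the Ftl1 count of 0 was not tested, so the 0 is not a measurement of ferritin light chain mRNA, and the 5′ ends, isoforms and end sites of Ftl1 could not be described.

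Trf lies on the minus strand of chromosome 9 (ENSMUSG00000032554.15, RefSeq NM_133977.2, 103208795 to 103230444 in GRCm38 for the GENCODE model) and has 17 exons, with the start codon in exon 1 and the stop codon in exon 17. Of the 392 transcripts, 387 had exon 17 (98.7%) and 263 had all 17 exons (67.1%). All 17 exons were present in 19 of 23 transcripts of VLMC-2, 7 of 8 of Oligo1-1, 1 of 3 of Oligo1-2, 22 of 119 of Oligo5-1 and 214 of 239 of Oligo5-2. The mature cells thus gave different pictures of the same mRNA, 89.5% whole molecules (85.01% to 92.8%) in Oligo5-2 and 18.5% (12.5% to 26.4%) in Oligo5-1. Every transcript with all 17 exons also held the whole coding sequence from the start to the stop codon.

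The difference lay at the 5′ end of the molecules. Exon 1 was reached by 219 of 239 transcripts in Oligo5-2, 91.6% (87.4% to 94.5%), and by 26 of 119 in Oligo5-1, 21.8% (15.4% to 30.1%). In Oligo5-1 the share with an exon fell stepwise from 95.8% at exon 17 and 94.96% at exon 16 to 84.0% at exon 15, 60.5% at exon 12, 49.6% at exon 7 and 26.1% at exon 2, and the median 5′ end lay in exon 7. In Oligo5-2 the share was 100% at exon 17, 97.1% at exon 12 and 92.5% at exon 7. The 5′ ends in Oligo5-1 were spread along the mRNA, with 13 in exon 5, 11 in exon 7, 13 in exon 15 and 13 in exon 16. VLMC-2 had exon 1 in 19 of 23 transcripts, 82.6% (62.9% to 93.0%), and its 4 others began in exon 3 or exon 15.

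**Figure D2:**
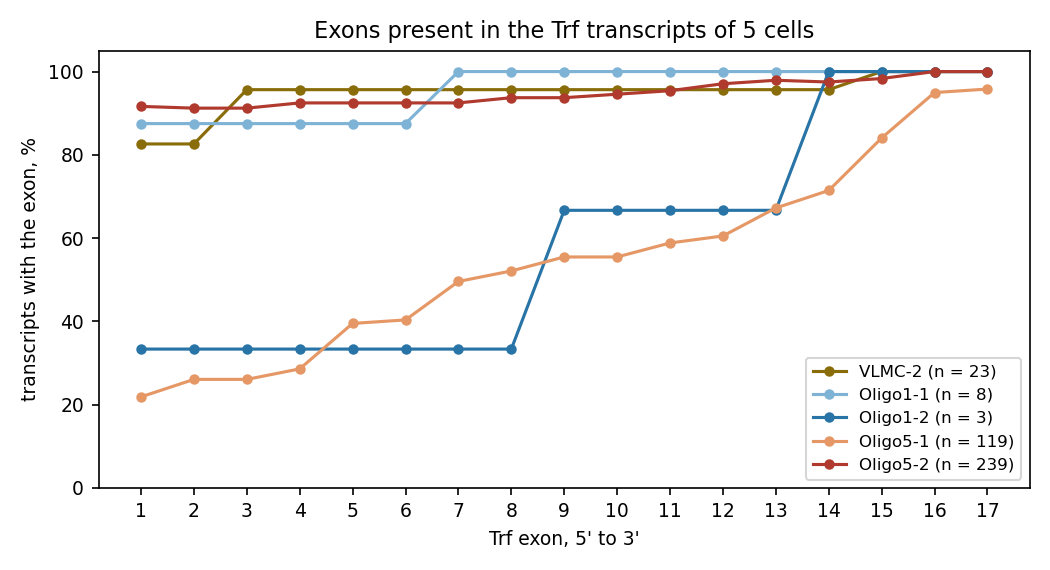
Share of the Trf transcripts of a cell that have a given exon, in percent, against the exon number from 5′ to 3′, for the 5 cells with Trf transcripts. Oligo5-2 and VLMC-2 stay above 80% along all 17 exons, while Oligo5-1 falls from 95.8% at exon 17 to 21.8% at exon 1. Oligo1-1 and Oligo1-2 rest on 8 and 3 transcripts.

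The same split was seen within each run. Among transcripts read in the long run alone, exon 1 was reached by 201 of 208 in Oligo5-2 (96.6%) and 21 of 41 in Oligo5-1 (51.2%). Among those read in the short run alone it was reached by 10 of 22 (45.5%) and 2 of 55 (3.64%). Other genes also differed between cells, with both runs pooled. These were genes whose longest RefSeq-linked mRNA measures 2000 to 3000 bases. Their first exon was reached by 56.9% of 1170 transcripts in Oligo5-2 and by 18.7% of 1088 in Oligo5-1. The values were 56.5% in VLMC-2, 53.7% in Oligo1-1, 38.9% in VLMC-1 and 9.29% in Oligo1-2. The long run gave 24.0% of the reads of Oligo5-1 and 25.8% of those of Oligo1-2, against 38.3% to 52.1% in the other cells. In Oligo5-1 the Trf value (21.8%) was within its interval of the value of the other genes, and in Oligo5-2 (91.6%) and VLMC-2 (82.6%) the intervals were apart. The mix of runs was not alike in this contrast. In Oligo5-2, 217 of 239 Trf transcripts had a read of the long run, against 3323 of all 6211 transcripts of the cell. The part of the run mix in these differences was not tested. These shares are a description with no test, since molecules of 1 cell share that cell.

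**Figure D3:**
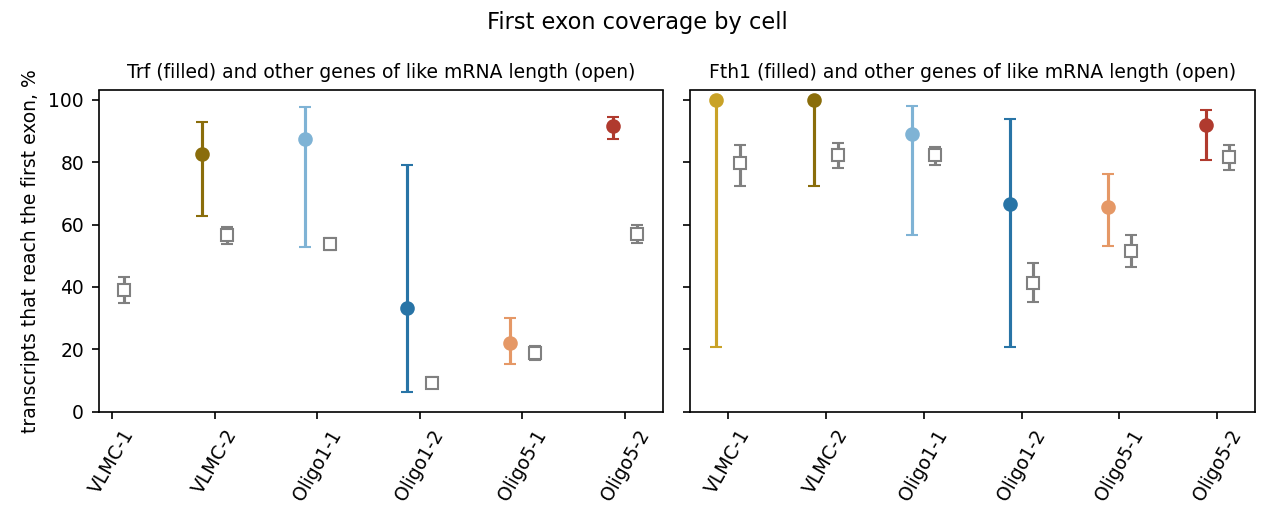
Share of transcripts that reach the first exon, in percent with Wilson 95% intervals, for Trf (left, filled) and Fth1 (right, filled) and for all other genes with an mRNA of 2000 to 3000 bases (left, open) or 700 to 1200 bases (right, open), in each of the 6 cells. Oligo5-1 is low for Trf (21.8%) and for the other long mRNAs (18.7%), while Trf in Oligo5-2 stands at 91.6% against 56.9%. Both runs are pooled. VLMC-1 has no Trf transcript.

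Exon skipping in Trf was rare. Of the 369 transcripts of the oligodendrocytes 8 lacked an exon between their first and last exon, 2.17% (1.10% to 4.22%), 3 of 119 in Oligo5-1 and 5 of 239 in Oligo5-2, and VLMC-2 had 0 of 23. No exon was missing from more than 4 of the transcripts that spanned it. The highest shares were 1.26% (4 of 317) at exon 9, 1.23% (4 of 326) at exon 10, 1.20% (4 of 332) at exon 12 and 1.15% (4 of 348) at exon 14, and exons 15 and 16 were never skipped, in 354 and 369 spanning transcripts. The intervals of all 15 internal exons overlapped, so no exon stood out.

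All 8 skipping transcripts rested on 1 read each. In Oligo5-1 all 3 lacked exons 12 to 14, and in Oligo5-2 exons 9 and 10 were missing in 2, exons 2 to 12 in 1, exons 5 to 11 in 1 and exon 14 in 1. None of the 8 gaps ran from an annotated exon end to an annotated exon start: within 1 base, 2 began at the end of exon 11 and broke off inside exon 15, 2 ended at the start of exon 11 and began in the intron after exon 8, and 4 met no annotated border. This differed from the other Trf junctions, of which 9885 of 9950 positions (99.3%) matched the model to the base and 9931 (99.8%) were within 1 base. With UMIs read 2 or more times, 0 of 162 Trf transcripts of the oligodendrocytes skipped an exon. Some of the repeats have near UMIs, 2 of the 3 without exons 12 to 14 (1 substitution) and both without exons 9 and 10 (a shift of 1 base), and 2 of 159 transcripts skipped an exon when UMIs that differ by 1 substitution were merged and 3 of 187 when near UMIs with like ends were.

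The transcript that lacked exons 5 to 11 is shown because of the bases at its gap. It went from exon 4 to exon 12 and so lost 1002 bases of mRNA, a multiple of 3, and the same 11 bases stand at both sides of the gap, so the exact crossing point cannot be placed within them. The run of 11 bases occurs 2 times in the Trf mRNA, at chr9:103226104-103226114 in exon 4 and at chr9:103217497-103217507 in exon 12, minus strand. In the windows below it is in capitals, with 9 bases of the mRNA on each side.
Exon 4, before the gap: tactacgctGTGGCTGTGGTaaagaaggg
Exon 12, after the gap: tattatgccGTGGCTGTGGTgaaggcatc
The other gaps with both sides in exons shared 0 to 2 bases. Of the 3 transcripts that lacked exons 12 to 14, 2 lost 489 bases, and the one that lacked exons 2 to 12 lost 1560 bases, both multiples of 3. In the latter the last base before the gap was 103230217, next to the first base of the start codon, 103230216. That molecule thus lacked the start codon, and its loss of a multiple of 3 does not stand for a kept reading frame. For the third without exons 12 to 14, whose gap did not begin in an exon, no loss was counted. The transcript that lacked exon 14 lost 179 bases, which is not a multiple of 3.

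Gaps inside an exon were about as rare, with 3 transcripts of Oligo5-1 that lacked 55 bases of exon 8 and 1 that lacked 60 bases of exon 16. The UMIs of the 3 with the gap in exon 8 each lie 1 substitution or a shift of 1 base from another of the 3, so that they may stand for fewer molecules. More than 10 bases of intron were seen in 5 transcripts. One of these, in Oligo5-1 with 4 reads, lay wholly in the intron after exon 8 (621 bases) and touched no exon of the model. No transcript retained a whole intron between its exons.

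The start of Trf was sharp in the oligodendrocytes and had further upstream positions in VLMC-2. The most used 5′ end, position 103230270 of chromosome 9, lay 54 bases before the start codon and had 152 of the 272 transcripts with exon 1. Within 5 bases of it began 6 of 7 transcripts of Oligo1-1, the single one of Oligo1-2, 26 of 26 of Oligo5-1 and 212 of 219 of Oligo5-2, in all 245 of 253 (96.8%, 93.9% to 98.4%). In VLMC-2 the figure was 12 of 19 (63.2%, 41.0% to 80.9%), and the 7 others began 18, 18, 29, 30, 30, 33 and 34 bases further upstream. No oligodendrocyte transcript with exon 1 began more than 6 bases upstream, 0 of 253 against 7 of 19 (36.8%, 19.1% to 59.0%), where 0 of 253 had an upper Wilson bound of 1.50%. A single Oligo5-1 transcript without exon 1, with 1 read, began with a block 1608 bases upstream of the GENCODE model that was joined to exon 5, and it is not among the 253.

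These upstream starts lay beyond the RefSeq start, which is 16 bases upstream of the most used position, and within exon 1 of the GENCODE model, which begins 174 bases upstream. All 7 transcripts had all 17 exons, 5 came from the long run alone, 1 from the short run alone and 1 from both, and 3 were read 2 or more times. Some of their UMIs are near each other: when UMIs that differed by 1 substitution or a shift of 1 base, with both ends within 5 bases, were counted once, an alternative chosen after seeing the data, 4 of 10 transcripts remained upstream (interval of 16.8% to 68.7%). For Fth1 all 10 transcripts of VLMC-2 had exon 1. Of these, 8 began within 5 bases of the most used Fth1 start and 2 began 236 bases downstream, so no upstream spread was seen in these few molecules. The 7 transcripts come from 1 cell, VLMC-1 had no Trf, and whether other VLMCs use these positions cannot be told from these data.

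**Figure D4:**
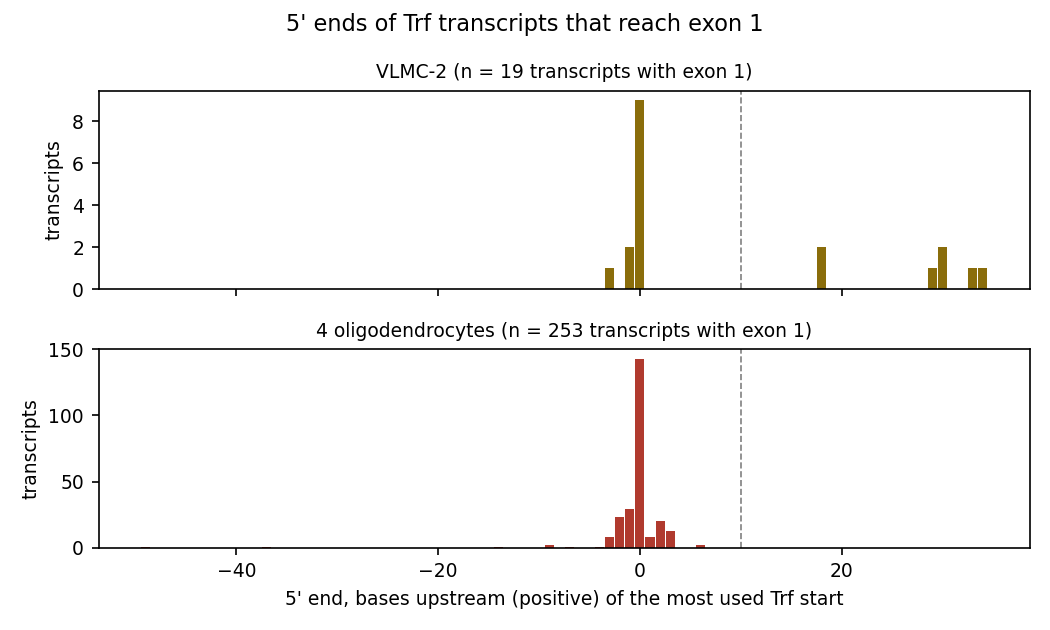
Number of Trf transcripts with exon 1 by position of the 5′ end, in bases upstream (positive) or downstream (negative) of the most used start, for VLMC-2 (above, 19 transcripts) and the 4 oligodendrocytes (below, 253 transcripts). The dashed line marks 10 bases upstream. In VLMC-2, 7 transcripts lie 18 to 34 bases upstream, where the oligodendrocytes have 0, and single oligodendrocyte transcripts reach 49 bases downstream.

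Fth1 lies on the plus strand of chromosome 19 (ENSMUSG00000024661.7, RefSeq NM_010239.2, 9982646 to 9985098) and has 4 exons. Of its 133 transcripts 106 had exon 1 of this model as their first exon, 15 exon 2 and 12 exon 3, where 2 of the 106 carried a further block upstream of the model and 1 of the 15 began in the intron just before exon 2. The most used 5′ end, position 9982704, had 64 transcripts and lies 28 bases before the element and 166 bases before the start codon. A second annotated first exon upstream, at 9980598 to 9980890, had 0 transcripts in any cell.

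The whole element was counted as present where the 5′ end lay at or before its first base. By this rule the element was present in 93 of 133 Fth1 transcripts, 69.9% (61.7% to 77.1%), and the cells differed as they did for Trf. It was present in 1 of 1 transcript of VLMC-1, 8 of 10 of VLMC-2, 7 of 9 of Oligo1-1, 2 of 3 of Oligo1-2, 31 of 61 of Oligo5-1, which is 50.8% (38.6% to 62.9%), and 44 of 49 of Oligo5-2, which is 89.8% (78.2% to 95.6%). Without Oligo5-1 it was present in 62 of 72, 86.1% (76.3% to 92.3%). Of the 93 transcripts 90 began within 5 bases of the most used start, and no 5′ end fell within the 28 bases of the element itself. The 93 include 2 transcripts of Oligo5-1 whose 5′ end lies in a separate block upstream of exon 1. For these 2 the rule does not show that the element itself was read.

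The 40 transcripts without the element began at scattered points. Their 5′ ends started 88 bases after the most used start, beyond the end of the element, and 5 of them still held the whole coding sequence: 3 in Oligo5-1, 1 in Oligo5-2 and 1 in Oligo1-1. A further 8 began in exon 1 after the start codon, and 27 had exon 2 or exon 3 as their first exon. No position without the element had more than 2 transcripts in all. An Fth1 mRNA that would encode ferritin heavy chain without its iron-responsive element was thus 5 of the 98 transcripts with a whole coding sequence in these cells. All 5 rested on 1 read each. A start of transcription within exon 1 and a molecule that lost its 5′ end cannot be told apart here.

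Other short mRNAs, of 700 to 1200 bases, were compared with both runs pooled. Their first exon was reached by 81.8% of 346 transcripts in Oligo5-2 and 51.6% of 347 in Oligo5-1. For Fth1 the values were 91.8% (45 of 49) and 65.6% (40 of 61). In VLMC-2 the values were 82.4% for the other genes and 10 of 10 for Fth1, and in Oligo1-1 82.2% and 8 of 9. Among transcripts read in the short run alone the element was present in 29 of 33 in Oligo5-2 and 22 of 47 in Oligo5-1, and in the long run alone in 12 of 13 and 3 of 5. In Oligo5-1, 2 transcripts carried a block of 15 bases that began 93 bases upstream of the most used start and then joined exon 1, with UMIs that are a shift of 1 base apart (TTGCAA and TTTGCA).

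**Figure D5:**
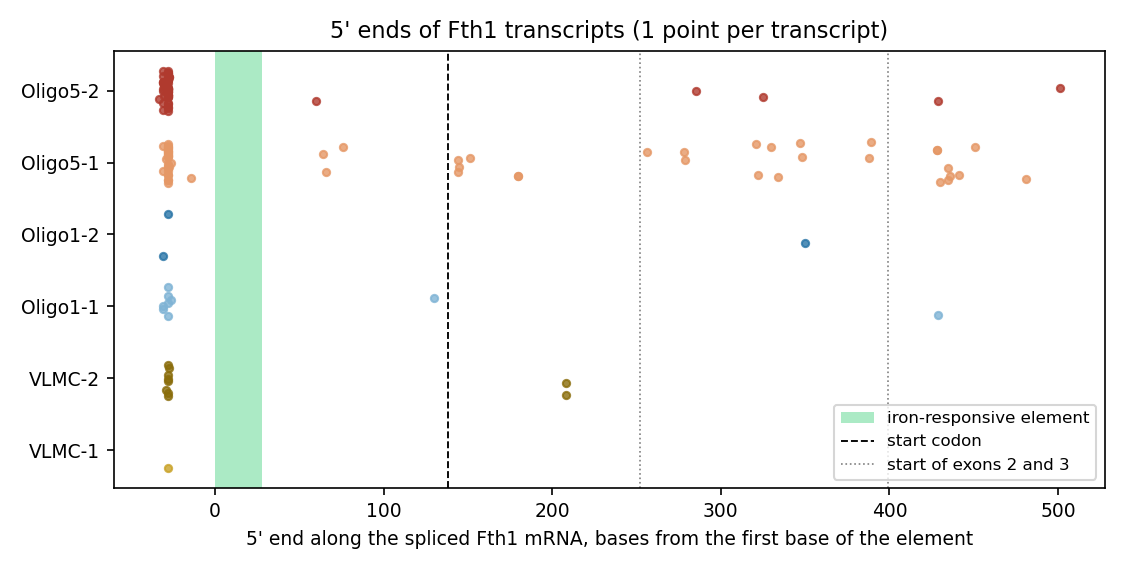
The 5′ end of each Fth1 transcript along the spliced mRNA, in bases from the first base of the iron-responsive element (green band, 28 bases), for the 6 cells. Points are single transcripts, spread vertically for sight, and 3 of Oligo5-1 are not drawn, 2 with a block upstream of the model and 1 whose 5′ end lies in the intron just before exon 2. The most used start, with 64 transcripts, lies 28 bases before the element, and no 5′ end lies within it. The transcripts without the element, to its right, are mostly from Oligo5-1 (30 of 40, with 1 of the 30 not drawn). The dashed line is the start codon and dotted lines are the starts of exons 2 and 3.

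Both genes had 1 dominant isoform. With the number of blocks, start, end and junctions all considered, and ends within 5 bases joined, the major Trf isoform was 231 of 253 transcripts with exon 1 in the oligodendrocytes, 91.3% (87.2% to 94.2%), and was the major one in each of the 5 cells, with 203 of 219 in Oligo5-2, 21 of 26 in Oligo5-1, 6 of 7 in Oligo1-1, 1 of 1 in Oligo1-2 and 12 of 19 in VLMC-2. The next 2 Trf isoforms, with 5 and 2 transcripts, were those with the upstream starts of VLMC-2, and 18 of the 23 isoforms had 1 transcript. The major Fth1 isoform was 78 of 95 transcripts with exon 1 in the oligodendrocytes, 82.1% (73.2% to 88.5%), with 42 of 45 in Oligo5-2, 28 of 40 in Oligo5-1, 7 of 8 in Oligo1-1, 1 of 2 in Oligo1-2, 8 of 10 in VLMC-2 and 1 of 1 in VLMC-1.

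Over all transcripts of each gene the 3′ ends were more uniform than the 5′ ends, where only molecules with a poly-A tail had been kept. Among oligodendrocyte Trf transcripts with exon 1, 96.8% began within 5 bases of the most used start. That is close to the 97.0% of all oligodendrocyte Trf transcripts at the major end. The major Trf end, with its mode at position 103208877, had 381 of 392 transcripts, 97.2% (95.05% to 98.4%), including all 23 of VLMC-2, all 11 of the Oligo1 cells, 111 of 119 in Oligo5-1 and 236 of 239 in Oligo5-2. It lies 1 base before the RefSeq end and 82 bases before the end of the GENCODE model, which 1 transcript of Oligo5-2 came within 3 bases of. In Oligo5-1 5 transcripts ended far upstream, 2 in exon 8, 1 in exon 14 and 2 in introns. The major Fth1 end, at position 9985091, had 131 of 133 transcripts, 98.5% (94.7% to 99.6%), 7 bases before the annotated end.

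The poly-A signal AATAAA, searched on the strand of the mRNA in the last 50 bases, stood 16 bases before the last base of the major Trf end and 13 bases before that of Fth1. It is found in the last 50 bases of 57.6% of 28581 RefSeq-linked coding transcripts. The windows of 30 bases that hold it are shown with the signal in capitals, at chr9:103208879-103208908 on the minus strand for Trf and at chr19:9985063-9985092 on the plus strand for Fth1, both in the 3′ UTR.
Trf end: cagagcacaaAATAAAaacgactgctgact
Fth1 end: catttcttcaAATAAAgaattttggtaccc

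Few transcripts of other genes of the iron pathway were read at this depth. Of 73 genes in 5 lists (uptake and receptors, export and ferroxidases, sensing, storage turnover and chaperones, mitochondrial iron and iron-sulfur clusters) 34 had a transcript in some cell and 39 had none, and the highest total was 13. The share of all annotated genes with a transcript was not computed, so the 34 have no background here. By cell there were 15, 26, 29, 16, 24 and 10 transcripts over all lists from VLMC-1 to Oligo5-2. No gene of these lists reached the 20 transcripts in the oligodendrocytes that the comparison of Oligo5 with Oligo1 asked for. Only 164 genes of any kind did, where 6357 had a transcript in some cell. The lack of one in these lists is thus not a result about iron genes. Trf and Fth1, which were chosen with their share known, together were 3.05% and 4.64% of the transcripts of the mature cells.

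Among these genes 2 had 10 or more transcripts. Cp, ceruloplasmin, a copper-containing ferroxidase that helps iron to leave cells, had 5 transcripts in VLMC-1, 6 in VLMC-2, 2 in Oligo5-1 and 0 in the other 3 cells. Prnp, the prion protein, a copper-binding membrane protein, had 1 in Oligo1-1, 3 in Oligo1-2, 6 in Oligo5-1, 3 in Oligo5-2 and 0 in the VLMCs. Outside that minimum, and named for their roles after their values were seen, Tfrc, the transferrin receptor, had 8 transcripts in 5 cells, at most 3 in a cell, the iron regulatory proteins Aco1 and Ireb2 had 4 and 3, Slc40a1, the iron exporter ferroportin, had 1, and Ncoa4, which delivers ferritin for breakdown, had 0. By their Wilson intervals nearly all of these counts were too low to set cells apart. The exceptions were Cp, at 0.214% (0.0914% to 0.4997%) in VLMC-1 above the upper bounds of Oligo1-1 (0.0334%), Oligo1-2 (0.0635%) and Oligo5-2 (0.0618%) and at 0.128% (0.0587% to 0.279%) in VLMC-2 above that of Oligo1-1, and Lrp1, an endocytic receptor, at 5 transcripts in VLMC-2, 0.107% (0.0456% to 0.249%), against 0 in Oligo1-1, named after its values were seen.

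Genes with the most similar pattern to Trf over the 6 cells, by Pearson's r of log2(transcripts per 10000 + 1) among 123 other genes with 30 or more transcripts, were Gpm6b (r = 0.91), Tmsb4x (0.89) and Klk6 (0.84), and those most similar to Fth1 were Tmsb4x (0.97), Gpm6b (0.95) and Mal (0.91). Trf and Fth1 had r = 0.96 with each other. Gpm6b, a membrane protein related to the myelin proteolipid, had 0, 1, 3, 1, 31 and 20 transcripts from VLMC-1 to Oligo5-2, and Tmsb4x, an actin-binding peptide, had 1, 6, 5, 1, 19 and 19. Klk6, a secreted protease, had 11 and 27 in the Oligo5 cells and 0 elsewhere, and Mal, a myelin membrane protein, had 52 and 23 there and 1 elsewhere. With 6 points, of which 2 are high for all these genes, r describes these cells only, and the points of a kind share their label and each gene of a cell shares its library.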

How the data were processed

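For the 6 cells the authors deposited 1 table with a read count for each transcript, not normalized, and the block positions on mm10. The authors had cut joined reads apart, required the cell's barcode on either end and a poly-A tail, aligned with GMAP (the submitters' processing notes name GSNAP), discarded molecules with several alignments, closed gaps below 40 bp and collapsed reads by UMI.

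Here transcripts of 1 gene were divided by all transcripts of the cell, 2338 to 11483, so that 3 counts are 0.0261% to 0.128%. Deposited starts count from 0 and were raised by 1. Exons follow the RefSeq-linked GENCODE M21 (GRCm38) model and are numbered 5′ to 3′. A block on any base of an exon counts as the exon. The element counts as present where the 5′ end lies at or before its first base. The Fth1 coding sequence counts as whole where the ends reach the start and the stop codon. Ends within 5 bp of a neighbour formed 1 site, and junctions within 1 bp were treated as equal. Shares have Wilson 95% intervals. Copies were searched with blastn 2.17.0 (identity of 85% or more over 300 or more bases). Versions were Python 3.11.15, pandas 2.3.3, scipy 1.17.1, matplotlib 3.10.9 and numpy 2.4.6, and the steps were tested on simulated data.

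The 3 genes and all lists were chosen with earlier results of these data known. Named are the 3 genes, genes of the iron lists with 10 or more transcripts, and for each of the 3 genes the 3 others with the highest r among those with 30 or more transcripts. A planned Fisher's exact test of the element in Fth1 against Ftl1 was not run, since Ftl1 had 0 transcripts. Alternatives were UMIs with 2 or more reads, merged UMIs, each run by itself, reads in place of transcripts, transcripts of several genes, other tolerances, a stricter rule for exons, and leaving out each cell.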

Additional observations from a re-analysis of the deposited data

How the results depend on the processing

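The values rest on 6 cells with few molecules of these genes in 4 of them, so that shares of the Oligo1 cells and VLMC-1 carry wide intervals, and with single reads behind much of the data. In all, 36 results gave 295 values under alternatives, of which 230 stayed within the interval or the spread of the value given in the report and 65 moved beyond it. Part of the 230 had no room to move. Ftl1 in all cells and Trf in VLMC-1 had no transcript in any setting, and adding transcripts of several genes changed no value. A ratio was judged by the spread of the few cells of each kind. So the Trf ratio of the oligodendrocytes over the VLMCs counted as staying at 2.91 without Oligo5-2, beside 6.10. All ratios between kinds of cell stayed above 1. The order of Oligo5-1 and Oligo5-2 for Trf turned in 3 of 7 settings (the short run and both mergings of UMIs), and Trf was below Fth1 in Oligo5-2 in the short run. The causes were not tested.

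With transcripts that had a read of the short run, Trf was 0.231% of VLMC-2, 0.0274% of Oligo1-1, 1.52% of Oligo5-1 and 0.932% of Oligo5-2, and Fth1 was 1.08% of Oligo5-2. Exon 1 of Trf was then reached by 62.5% in VLMC-2, 6.41% in Oligo5-1, 58.1% in Oligo5-2 and 21.2% over the oligodendrocytes, skipping was 4.42% and the major Trf isoform 79.2%. With a read of the long run, Trf was 0.740% of VLMC-2, 3.69% of Oligo5-1 and 6.53% of Oligo5-2, and Fth1 was 0.0411% of VLMC-2, 0.0362% of Oligo1-1, 0% of Oligo1-2 and 0.481% of Oligo5-2, with a ratio of Oligo5 over Oligo1 of 35.6. The element was then present in 100% of VLMC-2, 64.3% of Oligo5-1 and 81.2% over the oligodendrocytes, exon 1 of Trf in 37.5% of Oligo5-1, 96.3% of Oligo5-2 and 83.4% over the oligodendrocytes, and skipping was 1.04%. With UMIs read 2 or more times, Trf was 5.87% of Oligo5-2, Fth1 was 0% of both Oligo1 cells and 0.803% of Oligo5-1, the element was present in 36.0% of Oligo5-1 and 50% over the oligodendrocytes, exon 1 of Trf in 98.8% of Oligo5-2, skipping was 0%, the major end 98.8% for Trf and 100% for Fth1, and the major Trf isoform 96.2%. The ratio of Fth1 in Oligo5 over Oligo1 has no value in that setting.

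With UMIs that differ by 1 substitution merged, Trf was 1.47% of Oligo5-1 and 1.43% of Oligo5-2, its ratio of Oligo5 over Oligo1 was 21.7, exon 1 was reached by 58.5% and the major Trf end by 94.3%. With near UMIs merged where both ends lay within 5 bp, chosen after seeing the data, Trf was 1.36% of Oligo5-2, exon 1 was reached by 76.9% there and 47.1% over the oligodendrocytes, the major Trf end by 94.1%, and the major Trf isoform was 83.0%. With reads counted, Trf was 2.59% of Oligo5-1 and Fth1 0.106% of VLMC-2. With every end position distinct, the major end was 46.3% for Trf and 46.7% for Fth1 and the major isoform 28.1% and 34.7%, and with sites chained within 10 or 20 bp the Trf end was 98.4%.

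Leaving out each cell in turn, the element over the oligodendrocytes ran from 54.8% (without Oligo5-2) to 86.9% (without Oligo5-1), exon 1 of Trf from 26.2% to 90.8% likewise, the major Trf end from 93.8% to 98.8%, the major Trf isoform from 82.4% to 92.5% and the major Fth1 isoform from 72.0% to 90.9%. The ratio of Oligo5 over Oligo1 ran from 33.8 to 64.5 for Trf and from 11.6 to 18.4 for Fth1, and that of the oligodendrocytes over the VLMCs from 2.91 to 8.07 for Trf and from 2.29 to 11.4 (without VLMC-2) for Fth1. No paired analysis was possible because the cells of a kind share only a number and the planned test, within single cells, had no Ftl1 transcript to use.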
